A study of Mus musculus with 9 samples.

Results

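The Ms4a genes encode a family of small membrane proteins, and the RNA of 8 of them was followed in the jejunum of irradiated mice. The members were Ms4a18, Ms4a10 and Ms4a8a, which are known in intestinal epithelium, and Ms4a1, Ms4a4b, Ms4a6b, Ms4a6c and Ms4a7, which are known in immune cells. They were taken from a table of 31685 genes by their Ensembl identifiers. They had been selected on their levels in these same mice, so their values below are a description, and no p is given for any of them. The jejunal tissue came from 9 male wild-type C57BL/6J mice aged 6 to 8 weeks, 3 in each of 3 groups, and the labels call it epithelial. Control mice received no irradiation. TAI mice received total abdominal irradiation, 12 Gy of X-rays in a single dose, and PBS by the design text. TAI/IVIg mice received the same 12 Gy and 500 mg/kg of IVIg, which is human immunoglobulin given into a vein, first within 1 h and then every 3 days. The irradiated groups were sampled on day 3, and all 9 libraries carry the same batch label. No group carried a transgene or a deletion. Each group was limited to 3 mice and to mixed tissue. No group received IVIg without irradiation, and neither an injection nor a sampling day is stated for the control mice.

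The proteins of this family cross the membrane several times, and their genes lie side by side. Ms4a1 encodes CD20, the surface antigen of B cells that therapeutic antibodies bind. Ms4a4b is known in T cells, Ms4a6b and Ms4a6c in monocytes, macrophages and some lymphocytes, and Ms4a7 in macrophages. Ms4a8a is known in the epithelium of the gut. For Ms4a10 and Ms4a18 an intestinal site of expression is known better than a function. In this tissue, absorptive enterocytes cover the villi, crypts hold the dividing cells that replace them, and lymphoid follicles lie in the wall at irregular places.

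The 8 members lay in a cluster of 19 family genes on chromosome 19 of GRCm38, in the GENCODE annotation used here. The cluster ran from base 10962293 to base 11640851, a span of 679 kb. The epithelial members sat at its first end, all on the minus strand, with Ms4a10 at chr19:10962293-10974670, Ms4a18 at chr19:10997025-11018031 and Ms4a8a at chr19:11067471-11081102. Only Ms4a15 lay between Ms4a10 and Ms4a18. Ms4a1 was at chr19:11249675-11266241 and Ms4a7 at chr19:11321039-11336146, both on the minus strand. Ms4a4b was at chr19:11443553-11467055, Ms4a6c at chr19:11469366-11482192 and Ms4a6b at chr19:11516512-11531256, next to each other on the plus strand. Ms4a1, Ms4a6c and Ms4a6b each overlapped another annotated gene, and the strand setting of the read counting is not given in the sources used here, so reads in those overlaps are uncertain. Of all the 50-base stretches of its transcripts, Ms4a6c shared 5.85% with another family gene, Ms4a6b 3.44% and Ms4a4b 2.24%, and the reads of such stretches could have been split or dropped. The other 5 members shared none.

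The promoters are shown because the epithelial members lie close together and moved in different directions. RefSeq windows of GRCm38.p6 were matched by symbol for 7 members, Ms4a1 being the exception, and the 250 bases before each start were read on both strands. The longest word common to the windows of Ms4a18, Ms4a10 and Ms4a8a was GACTTTGGA, which reads TCCAAAGTC on the other strand. It was found after the sequences had been seen. It occurred in 93 of 32851 windows of this length (0.283%). In the family it was also in the window of Ms4a12, which Ms4a13 separates from Ms4a8a, and in none of the windows of the immune cell members. Ms4a18 held it 2 times, beginning 163 and 41 bases before the start, Ms4a12 at 87 bases, Ms4a10 at 29 bases and Ms4a8a at 11 bases. Capitals mark the word in the sequences that follow. The first Ms4a18 sequence ends where an annotated exon begins.
Ms4a18 (chr19:11018032-11018213, minus strand): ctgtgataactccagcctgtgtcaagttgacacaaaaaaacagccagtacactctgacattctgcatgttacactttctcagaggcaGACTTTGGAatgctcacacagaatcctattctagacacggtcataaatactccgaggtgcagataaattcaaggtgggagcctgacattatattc
Ms4a18, nearer copy (chr19:11017985-11018014, minus strand): cttcaaggagGACTTTGGAgcttgaaagag
Ms4a10 (chr19:10974701-10974950, minus strand): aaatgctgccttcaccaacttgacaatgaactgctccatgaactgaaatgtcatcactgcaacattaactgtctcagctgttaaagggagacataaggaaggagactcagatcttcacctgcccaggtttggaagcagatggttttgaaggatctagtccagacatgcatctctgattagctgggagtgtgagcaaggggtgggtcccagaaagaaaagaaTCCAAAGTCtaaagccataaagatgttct
Ms4a8a (chr19:11081104-11081353, minus strand): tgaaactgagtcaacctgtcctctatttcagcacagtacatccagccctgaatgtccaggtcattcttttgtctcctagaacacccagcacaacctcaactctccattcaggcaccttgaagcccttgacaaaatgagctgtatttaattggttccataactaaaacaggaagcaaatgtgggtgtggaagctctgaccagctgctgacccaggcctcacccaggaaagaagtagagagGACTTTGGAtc
Ms4a12 (chr19:11232521-11232550, minus strand): ttaatgaaagGACTTTGGAactatataaag

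Short consensus words of transcription factors were searched in the same windows. They were CAAAGTCCA for HNF4A, GTTAATNAT for HNF1, TTTATNG for CDX2, AGATAAG for GATA factors, GAGGAAGT for PU.1, ATGCAAAT for OCT factors and CCCNNGGGA for EBF. Among the members only Ms4a10 held one of them, the CDX2 word, on the other strand and 15 bases before the start, and 9.81% of all windows hold that word. The remaining words were in 0.384% (HNF4A), 0.737% (HNF1), 2.74% (GATA), 2.44% (PU.1), 1.60% (OCT) and 5.60% (EBF) of all windows. The shared word GACTTTGGA overlaps the HNF4A word in the letters CAAAGTC of the other strand without completing it. The windows of Ms4a6b and Ms4a6c had a run of 48 identical bases in common, which no other window held. A match describes these letters and shows no binding.

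Levels are FPKM, reads per kilobase of gene scaled to the size of the library, as the authors deposited them. Whole reads could be recovered from these values, and the libraries held 16284531 to 18244739 reads. Tests were made by limma on log2(FPKM + 1), and the 8 members were among the 13056 genes tested, for which 3 or more of the 9 libraries had to reach 1 FPKM. Ms4a4b passed that filter through exactly 3 mice and Ms4a1 through 4. The label of epithelial tissue held for the epithelial genes, since the 11 of that list, which includes Epcam and Krt8, summed to between 5751 and 6965 FPKM in every library. Genes of other cells were present as well. The 18 B cell genes summed to 827 FPKM in control mouse 3, 163 in TAI/IVIg mouse 2, 150 in TAI mouse 3 and 110 in control mouse 1, and to between 4.33 and 10.5 in the other 5. These same 4 libraries were also highest in the genes of lymphoid follicle stroma, such as Cxcl13. TAI/IVIg mouse 3 had the lowest sums of the 9 for macrophage genes (221 FPKM, others 304 to 512) and smooth muscle genes (118 FPKM, others 313 to 794). TAI/IVIg mouse 2 was next lowest in smooth muscle genes, at 313 FPKM, below every control and TAI mouse. Of the 8 smooth muscle genes, 2 were called lower in TAI/IVIg against control. In TAI/IVIg against TAI 0 were called, and 8 had an unadjusted p under 0.05 by limma. TAI mouse 3 was highest in adipose genes, at 489 FPKM against 66.3 to 127 in the others. In bulk tissue, fewer cells of a type and less RNA per cell cannot be told apart.

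Ms4a18 fell to a small share of its control level after irradiation, with or without IVIg. Its FPKM was 182, 177 and 176 in the control mice, 8.48, 11.3 and 3.70 in the TAI mice, and 0.765, 8.10 and 3.98 in the TAI/IVIg mice. The control mice lay within a narrow band, and every irradiated mouse was far below it. The control mean was 179 ± 3.47 FPKM (SD, n = 3), which was 22.8-fold the TAI mean of 7.82 ± 3.84 and 41.7-fold the TAI/IVIg mean of 4.28 ± 3.68. In log2(FPKM + 1), TAI was lower than control by 4.46 (log2 fold change -4.46, SE 0.547) and TAI/IVIg by 5.38 (-5.38, SE 0.547). The depth behind these values differed greatly, from 4425 to 4608 reads in control mice to 20 reads in TAI/IVIg mouse 1. Among all 31685 genes, Ms4a18 ranked 274 by mean FPKM in control mice, 4622 in TAI mice and 6160 in TAI/IVIg mice.

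Between the irradiated groups Ms4a18 overlapped. The log2 fold change of TAI/IVIg against TAI was -0.92 (SE 0.547). Leaving out a mouse moved it between -0.28, without TAI/IVIg mouse 1, the mouse with 20 reads, and -1.46, without TAI/IVIg mouse 2. It was -1.86 without the library of highest B cell sum in each group.

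Ms4a10 moved the other way and was higher in every irradiated mouse than in any control mouse. Its FPKM was 56.9, 58.8 and 39.0 in control mice, 189, 180 and 197 in TAI mice, and 209, 308 and 324 in TAI/IVIg mice. The groups were separate and stood in the order control, TAI, TAI/IVIg, the lowest TAI/IVIg mouse being just above the highest TAI mouse. The means were 51.6 ± 10.9, 188 ± 8.73 and 280 ± 62.2 FPKM (SD, n = 3 each), so that TAI was 3.65-fold and TAI/IVIg 5.43-fold the control mean. The log2 fold changes were 1.87 (SE 0.211) for TAI against control and 2.42 (SE 0.211) for TAI/IVIg against control. For TAI/IVIg against TAI the log2 fold change was 0.54 (SE 0.211), and limma called no gene in that comparison. By mean FPKM Ms4a10 ranked 1073 among all genes in control mice, 215 in TAI mice and 150 in TAI/IVIg mice.

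Ms4a8a had the highest mean of the members in control mice, with Ms4a18 within its spread, and was lower in both irradiated groups. Its FPKM was 226, 228 and 161 in control mice, 110, 111 and 102 in TAI mice, and 100, 129 and 120 in TAI/IVIg mice. All irradiated mice were below all control mice, and the irradiated groups overlapped. The control mean of 205 ± 38.0 FPKM was 1.90-fold the TAI mean of 108 ± 4.78 and 1.76-fold the TAI/IVIg mean of 116 ± 14.8 (SD, n = 3 each). The log2 fold changes were -0.90 against control in TAI, -0.80 against control in TAI/IVIg and 0.10 between the irradiated groups, each with an SE of 0.169. With the library medians set equal the log2 fold change of Ms4a8a against control was -0.56 in TAI and -0.21 in TAI/IVIg, and neither was called. The same scaling gave -4.12 and -4.88 for Ms4a18, and 2.21 and 3.01 for Ms4a10.

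**Figure D1:**
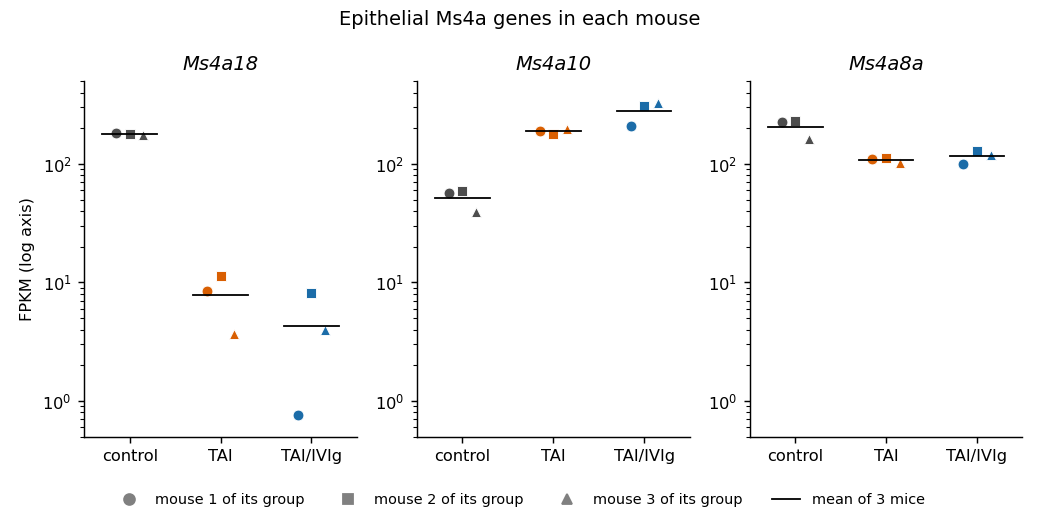
FPKM of Ms4a18, Ms4a10 and Ms4a8a on a log axis, a point per mouse with the marker shape giving the mouse number within its group, and a bar at the mean of 3 mice. Ms4a18 drops from 176 to 182 FPKM in control mice to at most 11.3 in irradiated mice, Ms4a10 rises from at most 58.8 to at least 180, and Ms4a8a moves least.

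Ratios between these genes within a library do not change when all values of the library are multiplied by a common factor. Quantile normalization can change them. Ms4a10 stood at 0.242 to 0.258 times the FPKM of Ms4a8a in control mice, 1.62 to 1.92 times in TAI mice and 2.09 to 2.70 times in TAI/IVIg mice. The groups were separate in this ratio. Against Ms4a18, Ms4a10 stood at 0.222 to 0.332 times in control mice, 15.9 to 53.3 times in TAI mice and 38.0 to 273 times in TAI/IVIg mice, where the irradiated groups overlapped. The composition of the summed signal of the epithelial members changed. Ms4a18 made up 38.2% to 46.8% of it in control mice, 1.22% to 3.74% in TAI mice and 0.247% to 1.82% in TAI/IVIg mice. Ms4a10 made up 10.4% to 12.7%, 59.5% to 65.0% and 67.4% to 72.3%. Ms4a8a went from 42.9% to 49.1% in control mice to 33.8% to 36.8% in TAI mice and 26.8% to 32.3% in TAI/IVIg mice. The sum itself was 376 to 465 FPKM in control mice, 302 to 308 in TAI mice and 310 to 448 in TAI/IVIg mice.

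**Figure D2:**
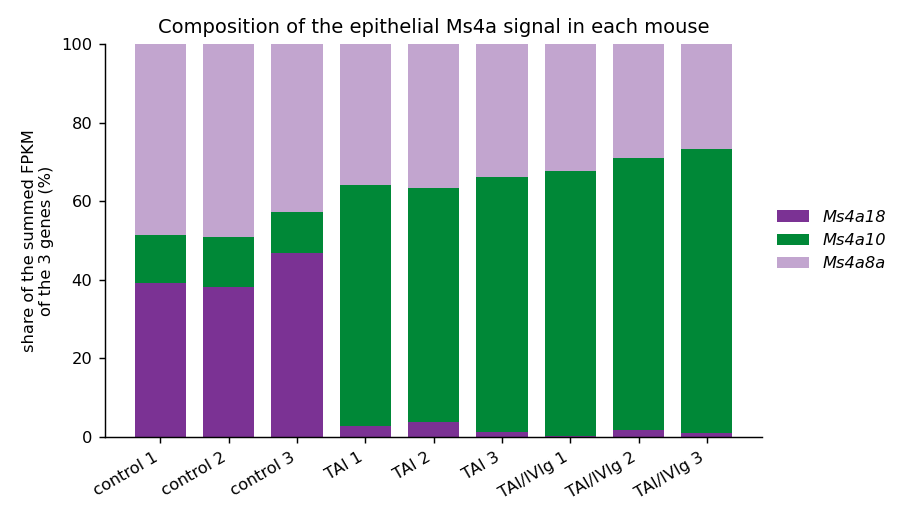
Share of Ms4a18, Ms4a10 and Ms4a8a in the summed FPKM of these 3 genes, in percent, a bar per mouse. Ms4a8a and Ms4a18 fill most of each control bar, and Ms4a10 fills 59.5% to 72.3% of every irradiated bar.

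The general genes of epithelium and enterocytes were set beside these values. In TAI against control, 3 of the 11 epithelial genes rose and 2 fell, with a median log2 fold change of 0.04 against -0.23 over all genes tested. In TAI/IVIg against control, 4 were higher and 3 lower. In TAI against control these counts were 3 higher and 0 lower without control mouse 2 or TAI mouse 3, 2 and 1 without TAI mouse 1, and 1 and 1 without the library of highest B cell sum in each group. Krt8, a keratin, was at 1694 to 1968 FPKM in control mice and 1092 to 1302 in irradiated mice, and was called lower in both comparisons with control. Cdhr5, a cadherin of the brush border, was at 341 to 495 FPKM in control mice and 729 to 886 in irradiated mice, and was called higher in both (log2 fold changes of 0.87 and 0.91). Epcam, an adhesion molecule of epithelium, was at 870 to 1044 FPKM in control mice and 1155 to 1748 in irradiated mice, and was called higher in TAI/IVIg (0.59) but not in TAI (0.45, limma adjusted p = 0.114). Of 22 enterocyte genes, 12 were higher and 0 lower in TAI, and 16 higher and 0 lower in TAI/IVIg, against control. Without the library of highest B cell sum in each group 7 and 10 were higher, and 1 was lower in TAI/IVIg. Apoa1, an apolipoprotein that enterocytes secrete, had log2 fold changes of 1.62 in TAI (SE 0.293, limma adjusted p = 0.00443) and 1.91 in TAI/IVIg (SE 0.293, limma adjusted p = 0.00151). Their summed level was 18094 to 29033 FPKM in control mice, 39007 to 60139 in TAI mice and 55813 to 59984 in TAI/IVIg mice. Relative to that sum, Ms4a18 was at 0.629% to 0.972% in control mice and at most 0.0289% in irradiated mice. Ms4a8a was at 0.778% to 0.999% in control mice and 0.167% to 0.285% in irradiated mice. Ms4a10 was at 0.196% to 0.258% in control mice, 0.328% to 0.460% in TAI mice and 0.348% to 0.551% in TAI/IVIg mice. It was thus also higher relative to that sum, with the irradiated groups overlapping. The sum is weighted to its highest genes, such as Fabp2, at 6932 to 11125 FPKM in control mice and 13342.5 to 26628 in TAI mice. The log2 fold changes of Apoa1, 1.62 and 1.91, were not far below those of Ms4a10, 1.87 and 2.42. Both genes rose by more than the median of the 22 enterocyte genes, 0.78 in TAI and 1.02 in TAI/IVIg against control. Anpep, of the same list, overlapped between groups. It was at 1909 to 2922 FPKM in control mice, 2364 to 3350 in TAI mice and 2675 to 3384 in TAI/IVIg mice. The part of the enterocyte genes in these results was not tested.

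Counted against the whole table, the epithelial members were called in both comparisons with control. In TAI against control, 1 member was called higher, Ms4a10, and 2 lower, Ms4a18 and Ms4a8a, where 8.81% of all genes tested were called higher and 26.1% lower. The same genes were the members whose groups did not overlap, beside 15.1% of all genes separate and higher and 38% separate and lower. In TAI/IVIg against control, 1 member was higher, Ms4a10, and 3 lower, Ms4a18, Ms4a8a and Ms4a6c, beside 9.06% and 37.4% of all genes, and these were again the members without overlap, beside 11.5% higher and 44.3% lower. In TAI/IVIg against TAI, 0 members and 0 of 13056 genes were called (0%). At an unadjusted p under 0.05, limma had 214 genes higher and 1466 lower there, and voom on the recovered reads also called 0. After all libraries were given 1 common median, 1111 genes were higher and 805 lower at that unadjusted p. In that comparison Ms4a10 alone among the members did not overlap, all TAI/IVIg mice being higher, beside 3.09% of all genes separate and higher and 16.1% separate and lower. The members were chosen with these contrasts known, and nothing is read from the counts. Many genes were lower in irradiated mice on the FPKM scale. The calls were 1150 higher and 3411 lower in TAI against control, and 1817 and 1685 with the library medians set equal. In TAI/IVIg against control they were 1183 and 4880, and 2708 and 1992 with the medians equal. The median log2 fold change of all genes was -0.23 in TAI and -0.39 in TAI/IVIg against control, and both comparisons use the same control mice. Leaving out the library of highest B cell sum in each group, 3 members were called in each comparison with control, the epithelial ones. The log2 fold changes of Ms4a18 were then -4.07 and -5.93, those of Ms4a10 1.65 and 2.15, and those of Ms4a8a -1.03 and -1.04.

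Ms4a1, the CD20 gene, varied more among the mice of a group than between groups. Its FPKM was 4.51, 0.137 and 29.9 in control mice, 0.0566, 0.139 and 5.50 in TAI mice, and 0.00899, 5.37 and 0.0675 in TAI/IVIg mice. Each group held both a high and a low mouse, and the groups overlapped. The low values rested on 1 to 15 reads and the high ones on 485 to 3203. The means were 11.5 ± 16.1, 1.90 ± 3.12 and 1.82 ± 3.08 FPKM (SD, n = 3 each), with log2 fold changes of -1.54 (SE 1.24) in TAI and -1.61 (SE 1.24) in TAI/IVIg against control. Without control mouse 3 these were -0.33 and -0.40, and without control mouse 2 they were -2.72 and -2.78. Between the irradiated groups the value was -0.06, with 0.79 when TAI mouse 3 was left out, -0.94 when TAI/IVIg mouse 2 was, and -1.15 by voom on the recovered reads.

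The 4 mice with the most Ms4a1 were the 4 with the most of the other B cell genes. In them Ms4a1 stood at 3.29% to 4.09% of the summed B cell genes. In the other 5 it stood at 0.136% to 1.56%, on the few reads given above. With all 9 mice, none of the 17 B cell genes tested was called by limma in any comparison (0 at an unadjusted p under 0.05), and their median log2 fold change was -1.40 in TAI and -1.37 in TAI/IVIg against control, with -0.05 between the irradiated groups. Without control mouse 3 the medians against control were -0.30 and -0.33, and without control mouse 2 they were -2.38 and -2.33, with 1 gene then lower in TAI/IVIg. Cd79a, a chain of the B cell receptor, was at 18.5, 1.48 and 142 FPKM in control mice, 1.20, 1.31 and 29.9 in TAI mice, and 0.801, 31.4 and 0.982 in TAI/IVIg mice. It was high in the same 4 mice. Of the 18 B cell genes, 2 or 3 were at 0 in each of TAI mice 1 and 2 and TAI/IVIg mice 1 and 3, and 0 in the other libraries. The part of lymphoid follicles in the level of Ms4a1 was not tested.

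**Figure D3:**
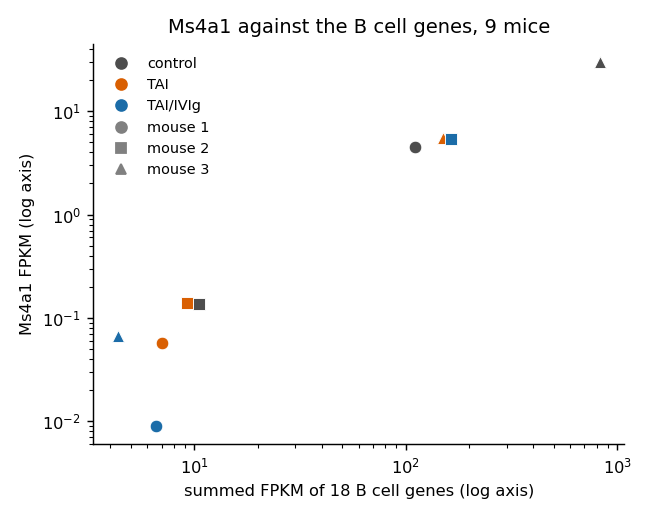
Ms4a1 FPKM against the summed FPKM of 18 B cell genes that do not include it, both on log axes, a point per mouse with colour for the group and shape for the mouse number. Control mice 1 and 3, TAI mouse 3 and TAI/IVIg mouse 2 lie at the upper right and the other 5 mice, from all groups, at the lower left.

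The remaining immune cell members were low. Ms4a4b, the T cell member, was at 1.13, 0.548 and 4.03 FPKM in control mice, 0.339, 0.581 and 1.57 in TAI mice, and 0.399, 0.590 and 0.0747 in TAI/IVIg mice. The groups overlapped, and the low end rested on 11 reads in TAI/IVIg mouse 3. Its log2 fold changes were -0.54 in TAI, -0.93 in TAI/IVIg against control and -0.39 between the irradiated groups, each with an SE of 0.420. Control mouse 3, TAI mouse 3, control mouse 1 and TAI/IVIg mouse 2 had the most Ms4a4b, and they also had the highest sums of 20 T cell genes, in the same order. That sum was 29.3 to 171 FPKM in control mice, 16.0 to 45.4 in TAI mice and 12.3 to 35.9 in TAI/IVIg mice. The same mice were also the highest in B cell genes. Below them the order did not hold. TAI/IVIg mouse 3 had the least Ms4a4b, but its T cell sum of 21.0 FPKM was above TAI mice 1 and 2 and TAI/IVIg mouse 1. Ms4a4b stood at 0.355% of the T cell sum in that mouse and at 1.64% to 3.45% in the others. Of the 12 T cell genes tested, 0 were called in TAI against control (1 at an unadjusted p under 0.05 by limma), and 2 were lower in TAI/IVIg against control. These 2 calls became 0 with the library medians set equal, with quantile normalization, with no filter, with the 6 mice alone, and without control mouse 3, TAI mouse 1, TAI/IVIg mouse 1 or TAI/IVIg mouse 3. They became 1 without TAI mouse 2, 5 without control mouse 2 and 3 without the library of highest B cell sum in each group.

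Ms4a6b and Ms4a6c, neighbours on the chromosome, had like values in every mouse. Ms4a6b was at 7.02, 3.99 and 16.4 FPKM in control mice, 3.63, 5.60 and 5.79 in TAI mice, and 4.98, 3.90 and 0.851 in TAI/IVIg mice. Ms4a6c was at 6.48, 5.05 and 14.1, then 3.79, 5.12 and 4.73, then 3.66, 3.88 and 0.843. For both, control mouse 3 was the highest of the 9 and TAI/IVIg mouse 3 the lowest. TAI overlapped control for both genes, and TAI/IVIg lay below control without overlap for Ms4a6c only. The log2 fold changes of TAI/IVIg against control were -1.23 (SE 0.520) for Ms4a6b and -1.34 (SE 0.424) for Ms4a6c, and those of TAI against control -0.58 and -0.67. Ms4a6c was called lower in TAI/IVIg against control, and it lost that call without control mouse 3 (-0.95), without TAI/IVIg mouse 3 (-0.89), with the library medians set equal (-0.89), with quantile normalization (-0.86), without the library of highest B cell sum in each group (-1.20), and, at an unmoved -1.34, with no filter, with the 6 mice of the comparison alone and with the replicate block. Ms4a6b went from -1.23 to -0.71 without TAI/IVIg mouse 3, and in TAI against control from -0.58 to -0.09 without control mouse 3. Between the irradiated groups the log2 fold changes were -0.65 and -0.67, and without TAI/IVIg mouse 3 they were -0.13 and -0.21.

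Ms4a7, known in macrophages, had the narrowest range of the 8 members in log2(FPKM + 1), 0.96 against 1.18 for Ms4a8a, the next. That order rests on the pseudocount. The highest FPKM was 2.74-fold the lowest for Ms4a7 and 2.28-fold for Ms4a8a, which varied least of the 8 in this ratio. The FPKM of Ms4a7 was 2.55, 3.30 and 2.13 in control mice, 1.44, 2.43 and 1.502 in TAI mice, and 2.02, 2.25 and 1.21 in TAI/IVIg mice. All groups overlapped. Its log2 fold changes were -0.40 in TAI, -0.38 in TAI/IVIg against control and 0.02 between the irradiated groups, each with an SE of 0.211. With the library medians set equal the value in TAI/IVIg against control was 0.02. Ms4a7 did not follow the B cell genes, and control mouse 3 was the lowest control mouse for it. The 21 macrophage and monocyte genes summed to 304 to 496 FPKM in control mice, 309 to 512 in TAI mice and 221 to 457 in TAI/IVIg mice. Of the 20 tested, 4 were higher and 5 lower in TAI, and 2 higher and 6 lower in TAI/IVIg, against control. In TAI these counts were 2 and 2 without control mouse 1, control mouse 2 or TAI mouse 1, 3 and 2 without control mouse 3, and 1 and 2 without the library of highest B cell sum in each group. Lyz2, the lysozyme of macrophages, was at 69.0, 44.4 and 214 FPKM in control mice, 33.3, 56.4 and 192 in TAI mice, and 29.6, 195 and 18.7 in TAI/IVIg mice, highest in the same 4 mice. C1qa, a complement gene of resident macrophages, was at 49.7 to 56.2, 39.4 to 50.4 and 24.0 to 44.8 FPKM. The part of these cell types in the values of the immune cell members was not tested.

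**Figure D4:**
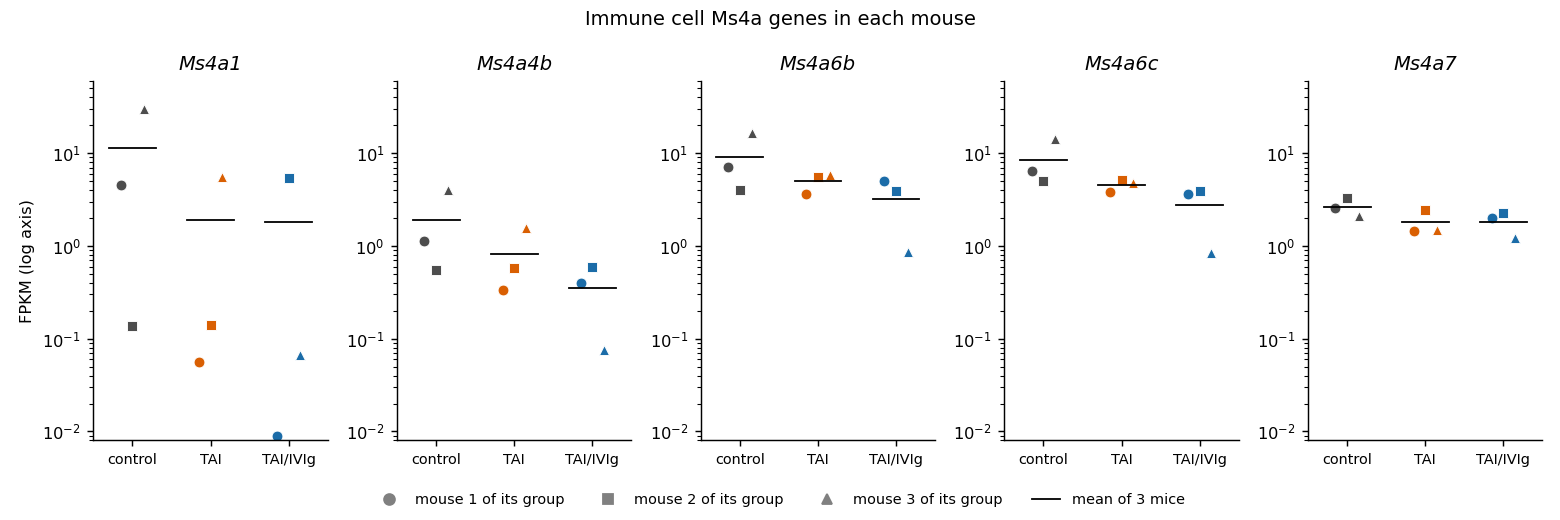
FPKM of Ms4a1, Ms4a4b, Ms4a6b, Ms4a6c and Ms4a7 on a log axis, a point per mouse with the marker shape giving the mouse number within its group, and a bar at the mean of 3 mice. Ms4a1 spreads from 0.00899 to 29.9 FPKM with a high mouse in every group, and Ms4a7 stays between 1.21 and 3.30.

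Of 16 further genes listed for the family, Tmem176a and Tmem176b of chromosome 6 included, 11 were in the table and 7 were tested. Ms4a12, which lies between Ms4a8a and Ms4a1 and is known in colon epithelium, was at 41.5, 37.3 and 32.4 FPKM in control mice, 18.4, 22.9 and 14.7 in TAI mice, and 15.6, 22.6 and 21.3 in TAI/IVIg mice. Every irradiated mouse was below every control mouse. Its log2 fold change was -0.97 in TAI (SE 0.196, limma adjusted p = 0.00713) and -0.88 in TAI/IVIg (SE 0.196, limma adjusted p = 0.00694) against control, close to the values of Ms4a8a. With the library medians set equal these were -0.63 and -0.31, and neither was called. Ms4a15, which lies between Ms4a10 and Ms4a18, was too low to be tested, at 1.59, 0.923 and 1.37 FPKM in control mice and at most 0.298 in irradiated mice, on 29 to 49 and 1 to 9 reads. Of these 5 genes at the first end of the cluster, Ms4a10 alone stood higher in irradiated mice, also with the library medians set equal for the 4 that were tested. Ms4a13, which lies between Ms4a8a and Ms4a12, was not in the table.

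Among the genes nearer the other end, 4 were tested. Ms4a4c varied most, from 0.204 FPKM in TAI/IVIg mouse 3 to 44.7 in control mouse 3, and its log2 fold change in TAI/IVIg against control was -2.25 (SE 0.838, limma adjusted p = 0.053). Ms4a4a, at 6.50 to 7.50 FPKM in control mice and 7.67 to 12.1 in TAI mice, had a log2 fold change of 0.43 in TAI against control (SE 0.218, limma adjusted p = 0.153). It was called higher in both comparisons with control once the library medians were set equal. Ms4a4d was at 6.03 to 22.2 FPKM and Ms4a6d at 2.37 to 11.1 FPKM over the 9 mice, and neither was called in any comparison. Tmem176b was at 60.3 to 80.7 FPKM in control mice and 38.0 to 50.3 in TAI/IVIg mice (log2 fold change -0.57, SE 0.198, limma adjusted p = 0.0415). With the medians equal that value was 0.02. Tmem176a, which overlaps it on the other strand, was at 15.8 to 38.5 FPKM and was not called. Ms4a2, the receptor chain of mast cells, had 1 and 2 reads in control mice 1 and 3 and 0 in the other 7 mice. At these depths 3 reads are the limit that a count of 0 allows.

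**Figure D5:**
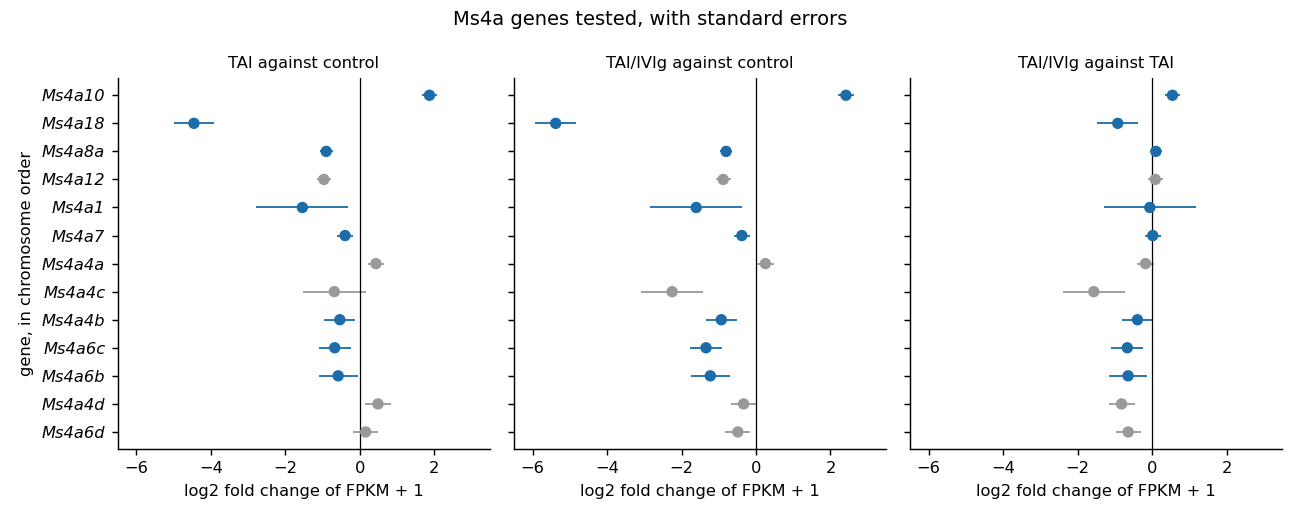
Log2 fold change of FPKM + 1 with its standard error for the 13 Ms4a genes tested, in chromosome order from Ms4a10 to Ms4a6d, in the 3 comparisons, with the 8 members in blue and other family genes in grey. Ms4a10 and Ms4a18, near neighbours, lie at opposite ends in both comparisons with control, and Ms4a1 and Ms4a4c have the widest errors.

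For the 6 members whose log2(FPKM + 1) ranged over at least 1.5 among the 9 mice, the tested genes of most similar profile were found by the root-mean-square difference after centring each gene on its mean. Nearest to Ms4a18 were Dmbt1, a mucosal scavenger protein (difference 0.349), Lypd8, a bactericidal surface protein of gut epithelium (0.783), and Akr1c19, an aldo-keto reductase (0.867). Dmbt1 was at 207, 126 and 166 FPKM in control mice, 10.8, 10.5 and 4.92 in TAI mice, and 1.02, 11.3 and 7.69 in TAI/IVIg mice, and like Ms4a18 it was lowest in TAI/IVIg mouse 1. Nearest to Ms4a10 was Mme, the brush border peptidase neprilysin (0.0869). Its means were 12.5, 43.2 and 64.8 FPKM in control, TAI and TAI/IVIg mice. Creb3l2, a transcription factor of the endoplasmic reticulum (0.144), and Tmem89 (0.160) followed.

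Nearest to Ms4a1 were 3 genes of B cells, Btla, an inhibitory receptor (0.149), Tnfrsf13c, the receptor for the survival factor BAFF (0.159), and H2-Eb2, a class II gene (0.186). Nearest to Ms4a4b were Adcy7 (0.121), Sept6 (0.130) and Cd1d1 (0.131). Irf5, an interferon regulatory factor, and Themis2 were the nearest to both Ms4a6b (0.192 and 0.200) and Ms4a6c (0.133 and 0.164), followed by Il10ra (0.208) for Ms4a6b and Trp53i11 (0.180) for Ms4a6c. These likenesses were taken over 9 mice that share their groups, and they are given as a description only.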

How the data were processed

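RNA of jejunal tissue was measured in 9 mice, and the labels gave the 3 groups and the mouse numbers. FPKM values were deposited for every mouse separately, and 0 columns were left out. The submitters' processing notes name FastQC, Trimmomatic, STAR, featureCounts and DESeq2, and the builds mm10 and GRCm38, without versions. For all 19 family genes with a position, the gene length behind the FPKM values equalled the exons of GENCODE M21. Reads recovered from the FPKM values were whole for 100% of values, within 0.001 of a read.

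Models of log2(FPKM + 1) were made in limma 3.58.1 (R 4.3.3), with the 3 groups as terms, all mice together and a trended empirical Bayes step, and were tested on simulated data. The filter kept 13056 genes that reached 1 FPKM in 3 or more libraries. Adjusted p-values are those of Benjamini and Hochberg, taken over these genes within a comparison, at a threshold of 0.05. The pseudocount of 1 shrinks the fold changes of low genes. Nothing says what a mouse number means. Same-numbered control and TAI mice deviated together (r = 0.271, 0.241 and 0.308), while r for same-numbered mice was -0.296 to 0.201 in the other pairs of groups. No label gives a pairing, and these correlations cannot show one. Mice of different numbers reached 0.408, control mouse 3 with TAI/IVIg mouse 2, both high in B cell genes. TAI mouse 3 was high in those genes as well. The p-values measure only the spread between these mice. The members and the lists were chosen with earlier results of these data known. The text names all members, the other family genes tested, up to 4 genes of highest mean level from a list, and the 3 genes nearest to a member. Ms4a15 and Ms4a2 were named after their values were seen. In TAI against control the lists of cytotoxic lymphocytes (0 genes higher and 3 lower of 7 tested), plasma cells (1 and 2 of 9), mast cells (0 and 0 of 1), pancreas (0 and 0 of 1), lymphoid follicle stroma (0 and 1 of 6), smooth muscle (0 and 0 of 8) and adipose tissue (0 and 0 of 5) were counted as well.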

Additional observations from a re-analysis of the deposited data

How the results depend on the processing

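The alternatives were a pseudocount of 0.1, no filter, library medians set equal, quantile normalization, voom on the recovered reads, the 6 mice compared alone, no trend, a replicate block, and each mouse left out. In TAI/IVIg against control, 4 members were called, and 2 with the library medians set equal, where Ms4a8a and Ms4a6c were lost. Leaving out a mouse gave 3 to 6 members there, 6 without control mouse 2. In TAI against control, 3 members were called, 3 without any one mouse, and 2 with the medians equal, without Ms4a8a. In TAI/IVIg against TAI, 0 members were called under every alternative run. With the replicate block 3 members were called in TAI against control and 3 in TAI/IVIg against control, Ms4a6c being lost in the latter. In TAI/IVIg against TAI the block gave 0 members and 3 genes of the whole table. With no filter, 4 of 31685 genes were called there. All of these genes were lower. The signs of Ms4a18, Ms4a10 and Ms4a8a against control stayed the same in all 18 alternatives. Several of these cannot move a fold change in this design. They are no filter, no trend, the 6 mice alone, the replicate block, and leaving out a mouse of the group not compared. Without the library of highest B cell sum in each group, an alternative chosen after seeing the data, Ms4a1 and Ms4a4b no longer passed the filter on low values. Ms4a4b also failed it without control mouse 1, control mouse 3 or TAI mouse 3. With the 6 mice alone, Ms4a4b failed it in both comparisons of TAI/IVIg, and Ms4a1 in TAI/IVIg against TAI. A member that failed the filter was not tested and counts as not called. The genes called in TAI against control fell from 4561 to 1669 without the library of highest B cell sum in each group. They fell to 2614 without control mouse 2, 2761 without control mouse 3 and 2343 without TAI mouse 1. The cause was not tested. Depth limits Ms4a1, Ms4a4b and Ms4a18 most, whose lowest libraries held 1, 11 and 20 reads.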
